A study of Homo sapiens with 12 samples.

Results

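The genes examined here encode 10 intermediate filament proteins: the keratins KRT8, KRT18, KRT19, KRT10 and KRT17, and VIM, NES, NEFL, NEFM and INA. They were chosen by symbol among the 25268 gene symbols listed for the series, with the response of KRT17 to RBMX known beforehand, so values of RBMX against control are a description of them and support nothing. All 10 had a mean level of at least 0.5 FPKM (fragments mapped per kilobase of transcript, corrected for library size) over the 12 libraries, as did 14676 genes in all. The cells were HEK293, a line derived from human embryonic kidney and transformed with adenovirus DNA. They were transiently transfected, with Lipofectamine2000, with 2 µg of pCMV6-HIS-HA-RBMX, which expresses tagged RBMX from a viral promoter, or with the mock empty vector. RBMX is a nuclear RNA-binding protein that takes part in splicing. The labels call the mock cells wild type and they are called control here. Total and polysomal RNA were sequenced from 3 cultures per vector, which makes 4 groups of 3 libraries. Nuclei and debris were removed before the sucrose gradient, and total RNA was a pool of all gradient fractions, so both fractions describe RNA of the cytoplasm. The transfected cells were not selected as a clone, so each library mixes cells that took up the plasmid with cells that did not.

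Intermediate filaments are the cytoskeletal fibres that give a cell its resistance to mechanical strain. Keratins work in obligate pairs of a type I chain (KRT10, KRT17, KRT18, KRT19) with a type II chain (KRT8 here), and their genes lie in clusters. KRT8 with KRT18 is the pair of simple epithelia, KRT19 a further simple-epithelium chain, KRT10 a chain of differentiating epidermis, and KRT17 a chain of hair follicles and of epidermis under stress. VIM forms homopolymers in mesenchymal and in most cultured cells, NES is known from neural progenitors, and NEFL, NEFM and INA are subunits of neurofilaments, the fibres of axons.

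KRT17 has close relatives next to it on chromosome 17. In GENCODE v29, KRT16 is its neighbour on one side and EIF1 on the other, with KRT14 just beyond KRT16. Over the aligned coding bases, KRT17 shared 85.4% with KRT14 and 80.1% with KRT16, but 73.0% with KRT19, 66.4% with KRT10 and 64.4% with KRT18. The stretches below, taken from GENCODE v29 transcripts (GRCh38), are shown because they bear on whether reads of KRT17 can be told from those of KRT14 and KRT16. In the first set, at the 30 coding bases of KRT17 where the relatives differ most, capitals mark in KRT14 and KRT16 the bases that differ from KRT17 and in KRT17 the bases that differ from either, and KRT14 and KRT16 each differ from KRT17 at 17 bases.
KRT17: GCCccGGGGCCCGCcCGTgactacagCcAG
KRT14: CGGccTgCTGAGATcAAAgactacagTcCC
KRT16: CGGccCAgTGAGATcAAAgactacagTcCC
In the second stretch, which encodes the conserved start of the keratin rod, all 3 genes have the same 30 bases.
KRT17, KRT14 and KRT16: accatgcagaacctcaatgaccgcctggcc

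Despite this likeness, almost no window of the KRT17 transcript occurred elsewhere. Of its 1552 windows of 100 bases, 5 (0.322%) were found in transcripts of another gene, all in KRT17P3, and KRT10, KRT19, NES and INA had 0 shared windows. KRT14 reached at most 0.0832 FPKM and KRT16 at most 0.116 FPKM in any library, so both were close to 0 beside KRT17. Other members share more sequence. On either strand, 16.6% of the KRT18 windows lay in KRT8 transcripts, with which KRT18 overlaps head to head on chromosome 12, and 7.56% of the KRT8 windows lay in 4 other genes, led by the pseudogene KRT8P3. VIM shared 29.3% of its windows with VIM-AS1 and AL133415.1 on the other strand. NEFM shared 41.0%, the most of the members, with AF106564.1 and NEFL 9.82% with AC107373.2, both on the other strand, and TMEM99 overlaps KRT10 on the other strand. No strand was stated for the library kit, so reads of partners that share windows cannot be told apart. The values of KRT8, KRT18, VIM, NEFM and NEFL are uncertain to that extent. The KRT10 transcript compared shared 0 of its 2025 windows, with TMEM99 or any other gene, and other KRT10 transcripts were not compared.

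RBMX itself was measured first, as the check of the labels. It lay at 108 to 147 FPKM in total RNA of control cells and at 1460 to 2073 in that of RBMX cells, and at 87.4 to 148 and 1072 to 1328 in polysomal RNA, so each library matched its label. The number of fragments behind a value is unknown, since only FPKM values were used. The FPKM sums of the libraries ran from 817528 to 1903317, of which small RNA genes held 40.6% to 72.9%.

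Control culture 3 stood apart from the other control cultures in most of the 10 genes, in both of its libraries. In total RNA its level, as a ratio to the mean of control cultures 1 and 2, was 0.457 for KRT8, 0.463 for KRT19, 0.464 for VIM, 0.470 for NEFM, 0.588 for KRT18, 0.625 for INA, 0.678 for NEFL and 0.749 for NES. It was 1.59 for KRT10 and 0.992 for KRT17. The median ratio over all genes tested was 1.005, so its values were not lower throughout. The housekeeping genes ACTB (0.514) and GAPDH (0.513) were low as well. Polysomal RNA of this culture showed the same order of size, from 0.385 for VIM and 0.390 for KRT8 to 1.18 for KRT17 and 1.73 for KRT10. What set this culture apart was not tested, and each RBMX against control difference of a member is therefore given with and without it.

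**Figure D1:**
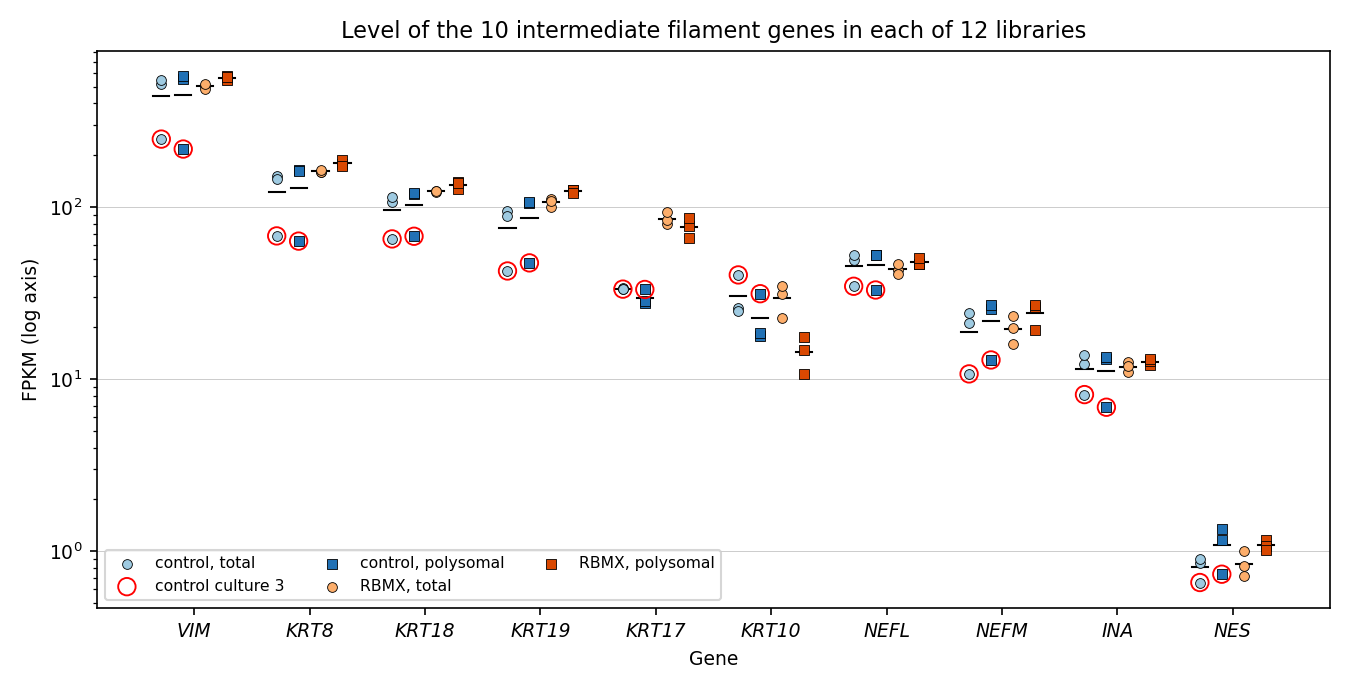
FPKM (log axis) of the 10 genes in each library, with the 3 libraries of a group in one column, black lines at the group means and red rings around control culture 3. KRT17 lies at 27.6 to 33.9 in the 6 control libraries and at 66.1 to 93.3 in the 6 RBMX libraries, while control culture 3 is the lowest control library for the other genes except KRT10, where it is the highest.

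VIM was the most abundant of the 10 transcripts and NES the least, in every group. In total RNA of control cells the group means were 440 ± 166 FPKM (SD, n = 3) for VIM, 122 ± 46.6 for KRT8, 95.8 ± 26.7 for KRT18, 75.3 ± 28.6 for KRT19, 45.6 ± 9.62 for NEFL, 33.5 ± 0.337 for KRT17, 30.4 ± 8.62 for KRT10, 18.8 ± 7.15 for NEFM, 11.4 ± 2.93 for INA and 0.805 ± 0.129 for NES. FPKM is per length of transcript, so these levels can be set side by side. The ranges over 3 libraries overlapped between neighbours from KRT8 down to NEFL, between KRT17 and KRT10, and between NEFM and INA, so their order was not resolved. The steps from VIM to KRT8, from NEFL to KRT17, from KRT10 to NEFM and from INA to NES were free of overlap. In RBMX cells KRT17 stood in the fifth place, above NEFL, with 85.6 ± 7.11 FPKM in total RNA. There the range of KRT17 overlapped neither that of KRT19 above it (107 ± 6.33) nor that of NEFL below it (43.5 ± 2.77).

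KRT17 was the member with the highest values of RBMX against control. Its total RNA read 33.9, 33.3 and 33.4 FPKM in control cultures 1 to 3 and 79.2, 84.3 and 93.3 in RBMX cultures 1 to 3. The polysomal libraries read 27.6, 28.6 and 33.2 in the control and 66.1, 77.4 and 86.8 with RBMX. In both fractions every RBMX library was above every control library. The log2 difference on the log2(FPKM + 1) scale was 1.32 ± 0.071 (SE) in total RNA, a fold of 2.50, and 1.33 ± 0.13 in polysomal RNA, a fold of 2.52. Ranked from the highest difference, KRT17 was number 215 of the 14676 genes tested in total RNA and 207 in polysomal RNA. This rank takes no account of spread and includes small RNA genes, and RBMX itself was number 84 and 89. Leaving out control culture 3 gave log2 differences of 1.32 and 1.41 for KRT17. Since KRT17 was chosen with this contrast known, these differences are given without a p.

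The simple-epithelium pair and KRT19 had small differences, which rested largely on control culture 3. In total RNA KRT8 read 151, 146 and 68.0 FPKM in the control and 159, 159 and 164 with RBMX, and 164, 162 and 63.4 against 178, 188 and 174 in polysomal RNA. The 2 groups did not overlap, but cultures 1 and 2 of the control lay close below the RBMX libraries. The log2 difference of KRT8 was 0.49 ± 0.32 in total and 0.59 ± 0.39 in polysomal RNA, against 0.11 and 0.14 without control culture 3. KRT18, the type I partner of KRT8, read 107, 115 and 65.3 in the control and 124, 123 and 124 with RBMX in total RNA. In polysomal RNA it read 119, 120 and 67.7 against 140, 128 and 137. These KRT18 groups were apart as well, with log2 differences of 0.41 and 0.44, and of 0.16 and 0.17 without control culture 3. KRT19 read 94.5, 89.0 and 42.5 against 111.9, 99.8 and 109 in total RNA, and 105, 106 and 47.4 against 126, 126 and 121 in polysomal RNA. Its log2 differences of 0.58 ± 0.31 and 0.61 ± 0.33 became 0.22 and 0.23 without control culture 3.

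KRT10 ranged from 10.7 to 40.3 FPKM over the 12 libraries and was high in control culture 3, where KRT8, KRT18 and KRT19 were low. In total RNA it read 26.0, 24.9 and 40.3 FPKM in the control and 22.8, 31.3 and 34.8 with RBMX, so the groups overlapped, with a log2 difference of -0.023 ± 0.24 (0.19 without control culture 3). In polysomal RNA it read 17.8, 18.5 and 31.4 against 14.7, 10.7 and 17.5, with each RBMX library below each control library. The log2 difference of KRT10 there was -0.60 ± 0.28, and -0.35 without control culture 3, which moved it by over 1.5 times.

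VIM, the main filament protein of these cells by RNA level, overlapped between the groups in both fractions. It read 522, 549 and 248 FPKM in the control and 508, 486 and 519 with RBMX in total RNA, and 552, 577 and 217 against 576, 545 and 572 in polysomal RNA. Its log2 differences of 0.28 ± 0.32 and 0.46 ± 0.40 became -0.086 and 0.0011 without control culture 3, so the direction in total RNA turned with that culture.

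The neural filament genes showed no separation between the vectors in either fraction. NEFL, the light subunit around which neurofilaments assemble, read 49.5, 52.6 and 34.7 FPKM in the control and 43.2, 40.9 and 46.4 with RBMX in total RNA, and 52.5, 52.5 and 33.0 against 46.7, 46.4 and 50.4 in polysomal RNA. NEFM, the medium subunit, read 21.3, 24.3 and 10.7 against 23.2, 19.7 and 15.97 in total RNA, and 25.6, 27.1 and 12.9 against 26.3, 26.9 and 19.3 in polysomal RNA. INA, the internexin subunit, read 12.3, 13.8 and 8.13 against 10.98, 12.5 and 11.98 in total RNA, and 13.1, 13.4 and 6.87 against 12.1, 12.7 and 13.04 in polysomal RNA. In each of these genes control culture 3 was the lowest of its fraction, and the higher of control cultures 1 and 2 was above every RBMX library. NES read 0.858, 0.8999 and 0.658 against 1.00, 0.718 and 0.826 in total RNA and was thus near the lower limit of the genes tested. The log2 differences in total RNA were -0.046 for NEFL, 0.12 for NEFM, 0.077 for INA and 0.034 for NES, and without control culture 3 they were -0.23, -0.22, -0.13 and -0.026. In polysomal RNA they were 0.087, 0.19, 0.22 and 0.013, against -0.13, -0.13, -0.067 and -0.11 without that culture. With control culture 3 left out, the sign was thus negative in all 4 genes in both fractions. The median over all genes was then -0.013 in total and -0.027 in polysomal RNA. The difference was smaller than its SE for NES in total RNA (-0.026 ± 0.073) and NEFM in polysomal RNA (-0.13 ± 0.17), and larger in the other cases. The rule used this contrast, and nothing is read from the signs.

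Across all genes, 24 of 14676 (0.164%) passed the threshold in total RNA (limma, adjusted p up to 0.05) and 7 (0.0477%) in polysomal RNA, where 1715 genes had an unadjusted p under 0.05. KRT17 was the only member among the first and no member was among the second. Without control culture 3 there were 40 calls in total RNA (0.273%), again with KRT17, and 11 in polysomal RNA (0.075%), with 0 members. KRT8, KRT17, KRT18 and KRT19 had all RBMX libraries above all control libraries in both fractions, which 11.9% of all genes did in total and 10% in polysomal RNA. All RBMX libraries were below all control libraries for 15.4% of genes and no member in total RNA, and for 12.5% of genes and KRT10 in polysomal RNA. The median log2 difference of the 10 members was 0.20 in total and 0.33 in polysomal RNA, where the median over all genes was 0, and it was 0.044 and -0.033 without control culture 3. The rule used these contrasts, and nothing is read from the counts.

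**Figure D2:**
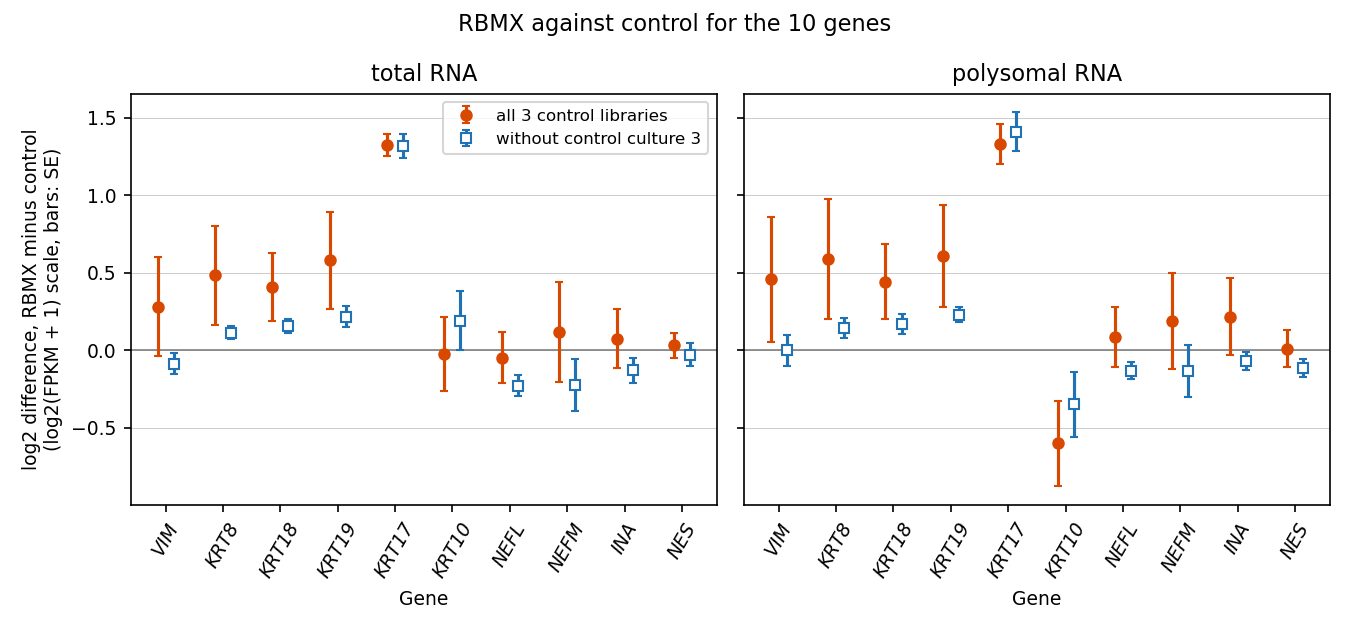
The log2 difference of RBMX minus control cells on the log2(FPKM + 1) scale, with SE bars, for each gene in total RNA (left) and polysomal RNA (right), from all 3 control libraries (filled) or without control culture 3 (open). KRT17 stays at 1.32 or above in all 4 estimates, while KRT8, KRT18 and KRT19 come down to between 0.11 and 0.23 in the open symbols.

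KRT17 was also set against the other members one library at a time, as the log2 ratio of their FPKM + 1. Between abundant genes such a ratio hardly depends on how the library was scaled, while for NES the added 1 lowers it and keeps it dependent on scaling. The log2 ratio of KRT17 to KRT8 was -2.13, -2.10 and -1.01 in total RNA of the control and -0.996, -0.91 and -0.81 in total RNA with RBMX. Control culture 3 thus came to just below the RBMX libraries, with KRT8 low there and KRT17 not. The ratio to NEFL was -0.53, -0.64 and -0.054 in the control and 0.86, 1.02 and 0.99 with RBMX, and the ratio to NES was 4.23, 4.18 and 4.37 against 5.33, 5.63 and 5.69. KRT17 therefore passed from below to above NEFL in the total libraries. In total RNA the RBMX libraries were all above the control libraries for the ratio to 8 of the other members, the exception being KRT19, with -1.45, -1.39 and -0.34 in the control and -0.49, -0.24 and -0.22 with RBMX. The same held for 96.3% of all other genes, so it does not mark out the filament genes. In polysomal RNA it held for KRT10, NES, NEFL, NEFM and INA, and for 94.1% of all other genes. The mean differences of these ratios in total RNA ran from 0.74 (KRT19) to 1.37 (NEFL), and without control culture 3 from 1.10 (KRT19) to 1.55 (NEFL).

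Among the 4 type I keratins, KRT17 made up 12.99%, 12.7% and 18.4% of the summed FPKM in total RNA of the control and 23.4%, 24.9% and 25.8% with RBMX. In polysomal RNA its share was 10.2%, 10.4% and 18.5% against 19.1%, 22.6% and 23.9%. KRT18 was the largest type I component in every library, with a mean share of 40.3% in the control and 35.8% with RBMX in total RNA. KRT10 held 9.94%, 9.49% and 22.2% in total RNA of the control and 6.74% to 9.63% with RBMX. The sum of the type I keratins was 261, 262 and 182 FPKM in the control and 338, 338 and 361 with RBMX in total RNA. KRT8, their only abundant type II partner, was 0.579, 0.556 and 0.375 of that sum in the control and 0.470, 0.471 and 0.455 with RBMX. Set against KRT18 and KRT19 alone, KRT8 was 0.752, 0.715 and 0.630 in the control and 0.673, 0.716 and 0.704 with RBMX, which overlapped.

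**Figure D3:**
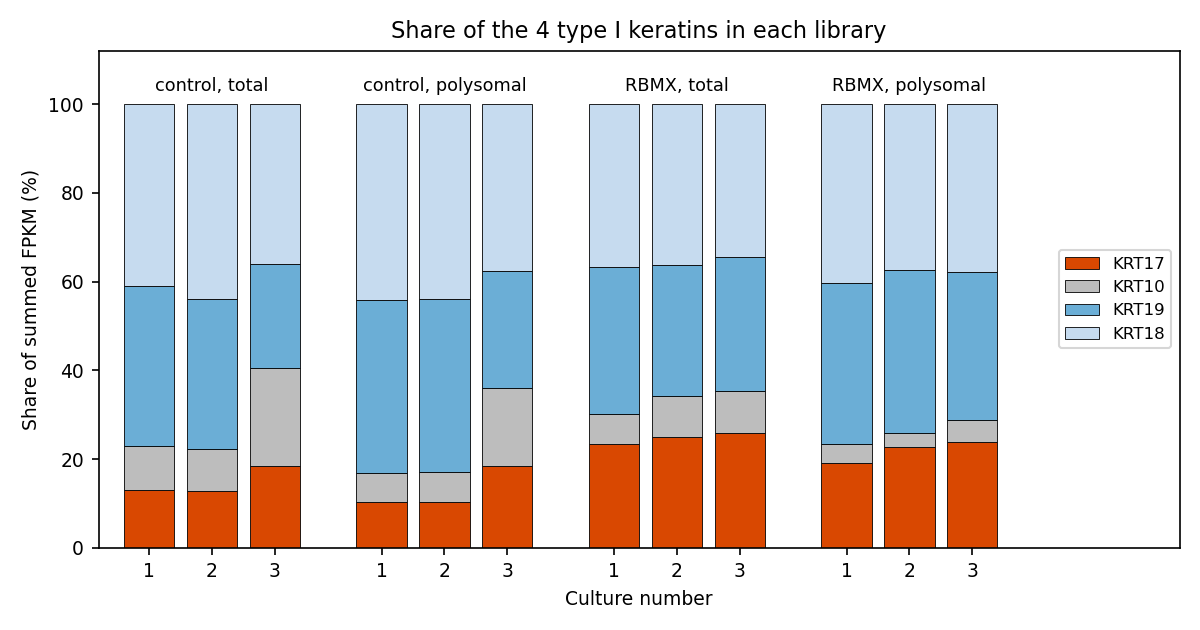
Share of KRT17, KRT10, KRT19 and KRT18 in their summed FPKM (percent, stacked to 100) in each library, with culture numbers 1 to 3 under each group. The KRT17 share lies at 10.2% to 18.5% in the control libraries and at 19.1% to 25.8% in the RBMX libraries, and the KRT10 share is largest in control culture 3.

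KRT8, KRT18, KRT19 and VIM moved together from library to library. Over the 12 libraries, Pearson's r of the log2(FPKM + 1) values lay between 0.95 and 0.99 for every pair of KRT8, KRT18, KRT19 and VIM, and at 0.93 for NEFL with INA and 0.97 for VIM with INA. NES went less closely with the others, from 0.61 with INA to 0.82 with NEFM, and NEFM lay at 0.80 to 0.86 with NEFL, INA, the keratins of that group and VIM. The 12 libraries come from 6 cultures and include control culture 3, so these are descriptions only. KRT17 had an r of 0.54 with KRT18 and 0.53 with KRT19, but -0.074 with NES and -0.0097 with NEFL. KRT10 had a negative r with each of the other members, from -0.16 with KRT17 to -0.82 with NES. The ratio of VIM to KRT8 was 3.45, 3.76 and 3.65 in total RNA of the control and 3.20, 3.05 and 3.16 with RBMX. In polysomal RNA it was 3.37, 3.57 and 3.43 against 3.23, 2.90 and 3.30. Control culture 3 lay between the other control cultures, and each RBMX library was below each control library in both fractions. The rule used this contrast, and nothing is read from it. The neurofilament genes had similar proportions with both vectors. Of the summed FPKM of NEFL, NEFM, INA and NEFH in total RNA, NEFL held 59.6% ± 3.80 in the control and 56.6% ± 3.79 with RBMX. NEFM held 23.7% ± 3.42 and 25.5% ± 4.14, and INA 14.7% ± 0.309 and 15.4% ± 1.47. The heavy subunit NEFH held 2.05% ± 0.551 and 2.55% ± 0.258.

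The 5 genes with the pattern most like KRT17 were found by Pearson's r of log2(FPKM + 1) over the 12 libraries among 14181 genes, small RNA genes left out. They were RBMXL1 (r = 0.967), RBMX itself (0.964), ACTBL2 (0.956), NUAK2 (0.954) and TRMT61A (0.952). RBMXL1, an intronless copy of RBMX, lay at 7.81 to 17.1 FPKM in the control and at 338 to 630 in the RBMX libraries, and reads of RBMX and RBMXL1 may be split between them. ACTBL2, an actin-like gene, lay at 1.79 to 2.76 FPKM in the control and at 4.25 to 5.30 with RBMX. NUAK2, a protein kinase gene, lay at 0.855 to 1.07 and 1.30 to 1.59. TRMT61A lay at 10.45 to 11.22 FPKM in the control and at 12.01 to 13.09 with RBMX, so a high r can go with a small step. KRT17 was chosen with its response to RBMX known, and r over libraries of both vectors cannot be separated from that contrast. Libraries of one culture are not independent either, so these r values are descriptions only. No other intermediate filament gene was among these 5, and nothing is read from that.

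Polysomal against total RNA of the same vector was not used to choose the members and could be tested. KRT10 and KRT17 were lower in polysomal than in total RNA in all 6 cultures, and KRT18, KRT19, NEFM and NES were higher in all 6, but none of the 10 passed the threshold. The KRT10 ratio of polysomal to total FPKM was 0.686, 0.742 and 0.778 in the control cultures and 0.646, 0.342 and 0.503 in the RBMX cultures. Its log2 difference was -0.43 ± 0.29 in the control (limma adjusted p = 0.779) and -1.005 ± 0.23 in RBMX cells (limma adjusted p = 0.111). This fit did not pair the fractions, so its SE includes the spread between cultures. With each culture paired the SE of KRT10 was 0.051 and 0.19 (limma adjusted p = 0.148 and 0.169). Leaving small RNA genes out of the unpaired test changes the number of tests and the trend. The adjusted p of KRT10 in RBMX cells was then 0.0456 (limma), and over all its alternatives it ran from 0.0456 to 0.452. TMEM99 overlaps KRT10 on the other strand and was named after its values were seen. It had ratios of 0.551, 0.594 and 0.772 in the control and 0.607, 0.401 and 0.542 with RBMX. In RBMX cells TMEM99 passed the threshold, with a log2 difference of -0.92 ± 0.12 (limma adjusted p = 0.0449), but not with each culture paired (limma adjusted p = 0.139). Since TMEM99 was named with its values known, nothing is read from this call. The KRT10 transcript compared had 0 windows in TMEM99 transcripts, and reads from the rest of the overlap were not tested.

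KRT17 had polysomal to total ratios of 0.813, 0.856 and 0.996 in the control cultures and 0.834, 0.918 and 0.930 in the RBMX cultures. The vectors overlapped in these ratios. The log2 difference of KRT17 was -0.17 ± 0.083 in the control (limma adjusted p = 0.666) and -0.16 ± 0.12 in RBMX cells (limma adjusted p = 0.458). With each culture paired the SE of KRT17 was 0.072 and 0.057 (limma adjusted p = 0.2875 and 0.232). The difference of its RBMX effect between the fractions, which the rule used in both parts, was 0.0094 on the log2 scale, so both fractions gave nearly the same value. Over all genes 3 (0.0204%) passed for this difference between fractions, with 0 members, and 88 had an unadjusted p under 0.05. KRT10 had the largest such value of the 10, at -0.58 ± 0.39 without pairing, where the SE was 0.22 with each culture paired.

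KRT19 had ratios of polysomal to total FPKM of 1.11, 1.19 and 1.11 in the control and 1.13, 1.26 and 1.11 with RBMX, and NEFM had 1.20, 1.11 and 1.21 against 1.14, 1.37 and 1.21. These were the abundant members with the highest ratios. The log2 difference of KRT19 was 0.19 in the control (limma adjusted p = 0.994) and 0.22 in RBMX cells (limma adjusted p = 0.147). That of NEFM was 0.22 (limma adjusted p = 0.979) and 0.29 (limma adjusted p = 0.395). With each culture paired the limma adjusted p in control and RBMX cells was 0.196 and 0.215 for KRT19. For NEFM it was 0.185 and 0.197. VIM, KRT8, NEFL and INA were higher in polysomal RNA in the 3 RBMX cultures, while their control cultures went in both directions. VIM, for example, had ratios of 1.06, 1.05 and 0.875 in the control and 1.13, 1.12 and 1.10 with RBMX. Control culture 3 had the lowest ratio of the control cultures for KRT8, KRT18, VIM, NES, NEFL and INA and the highest for KRT17, KRT10 and NEFM.

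In control cells 12 of 14676 genes (0.0818%) passed for polysomal against total RNA, and in RBMX cells 196 (1.34%), of which 4 were higher and 192 lower in polysomal RNA. No member was among either. An unadjusted p under 0.05 was reached by 1180 genes and 0 members in the control and by 3373 genes and 4 members, KRT8, KRT19, KRT10 and NES, in RBMX cells. With each culture paired, 6 genes (0.0409%) passed in the control and 4 (0.0273%) in RBMX cells, again with no member, and the lowest adjusted p of a member was 0.148 (limma, KRT10) in the control and 0.169 (limma, KRT10) in RBMX cells. Higher in polysomal RNA in every culture were KRT18, KRT19, NEFM and NES in the control, as were 24.2% of all genes, and 8 members in RBMX cells, as were 28.2% of all genes. Lower in every culture were KRT10 and KRT17 with either vector, as were 22% of genes in the control and 27.2% in RBMX cells.

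**Figure D4:**
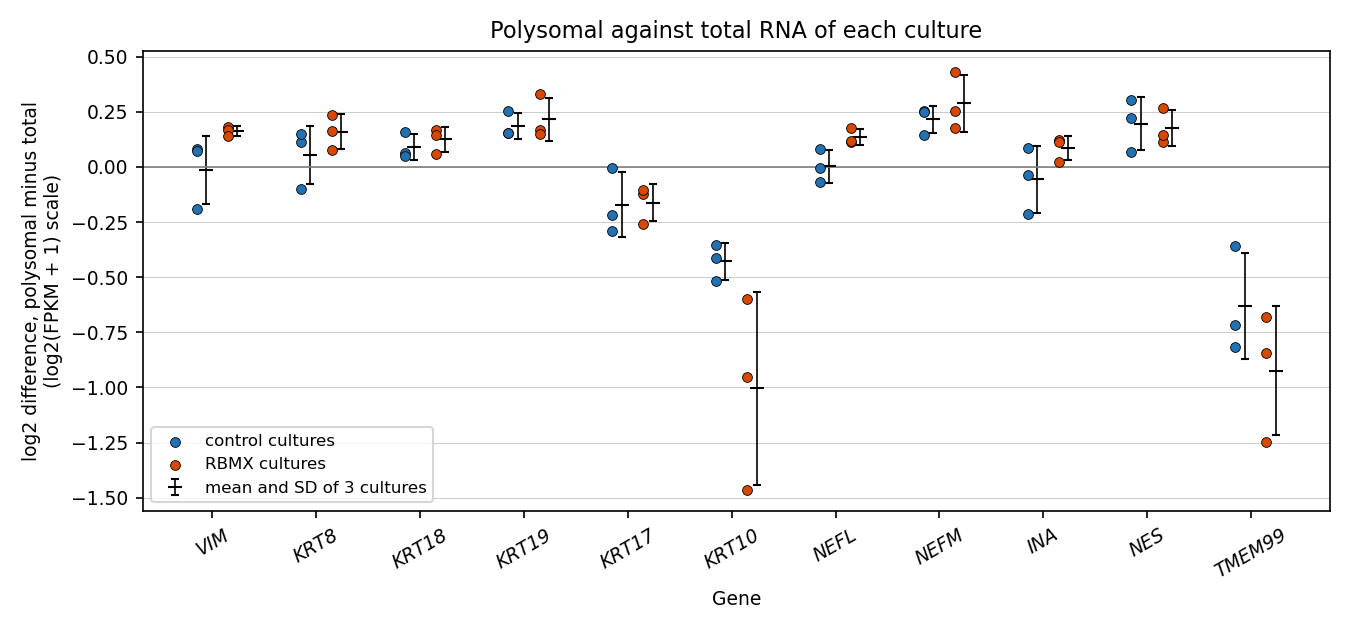
The log2 difference of polysomal minus total RNA on the log2(FPKM + 1) scale in each culture, as points for control and RBMX cultures, with the mean and SD of 3 cultures beside them, for the 10 genes and for TMEM99. KRT10, KRT17 and TMEM99 lie below 0 in all 6 cultures, and KRT10 in RBMX cells spreads from -1.46 to -0.60.

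Of 63 other intermediate filament genes, 12 passed the filter on low values and 0 passed the threshold in any of the 5 comparisons (limma). An unadjusted p under 0.05 was reached by 7 of them for polysomal against total RNA in RBMX cells, by 1 for RBMX against control in each fraction and by 0 in the remaining comparisons. Of all 14676 genes, 3373 reached it for the first, and 2756 (total) and 1715 (polysomal RNA) for RBMX against control. The nuclear lamins were the most abundant. LMNB2, a B-type lamin, lay at 59.6 to 125 FPKM over the 12 libraries, LMNB1 at 27.5 to 94.0 and LMNA, the gene of lamins A and C, at 21.0 to 64.6. In total RNA the RBMX minus control log2 differences were 0.095 for LMNB2, 0.11 for LMNB1 and 0.40 for LMNA, which read 52.9, 52.1 and 21.0 in the control and 53.6, 48.7 and 52.8 with RBMX. The 3 lamin genes thus also had their lowest control value in culture 3. Without control culture 3 the log2 differences of LMNB2, LMNB1 and LMNA were -0.17, -0.35 and -0.024. KRT80 and KRT222 were the only other keratins past the filter. KRT80, a type II chain of many epithelia, read 2.09, 2.19 and 3.47 FPKM in the control and 2.81, 2.87 and 4.85 with RBMX in total RNA, and the groups overlapped. KRT222, a keratin-like gene, read 4.99, 4.40 and 6.44 against 3.99, 4.67 and 3.88. The median log2 difference of the 12 genes was 0.11 in total and 0.18 in polysomal RNA, and -0.079 and 0.030 without control culture 3.

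Among the 51 other filament genes under the filter, KRT28 separated by vector. KRT28, a type I keratin of the inner root sheath of the hair follicle, lies next to KRT10 in GENCODE v29. In total RNA it read 0, 0.0205 and 0.0133 FPKM in the control and 0.598, 0.570 and 0.743 with RBMX. In polysomal RNA it read 0.0203, 0.0177 and 0 against 0.325, 0.379 and 0.385. Each RBMX library was thus above each control library, at levels far below those of KRT17. KRT4 and KRT79 were apart in both fractions too, but at no more than 0.0575 and 0.0293 FPKM in any library. Of the genes past the filter, 11.9% had all RBMX libraries above all control libraries in total and 10% in polysomal RNA. The share among genes under the filter was not counted, so nothing is read from KRT28, KRT4 and KRT79 being apart. With no filter on low values, 0.349% of genes passed in total and 0.141% in polysomal RNA. In these fits the log2 difference of KRT28 on the log2(FPKM + 1) scale was 0.69 ± 0.042 in total and 0.43 ± 0.020 in polysomal RNA. It is given without a p, since KRT28 was singled out after its values in this contrast were seen. The depth behind such low values is unknown. The other genes under the filter with a mean FPKM near that of KRT28 were DES (0.389), GFAP (0.234) and KRT7 (0.221), and their groups overlapped.

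The desmosome and cytolinker genes anchor filaments at the membrane or tie them together. Of 20 desmosome and cytolinker genes 14 passed the filter and 0 passed the threshold in any comparison (limma). In a comparison 0 to 8 of the 14 had an unadjusted p under 0.05. The 8 were for polysomal against total RNA in RBMX cells, where 3373 of all 14676 genes had such a p. The median log2 difference of the 14 for RBMX against control was 0.051 in total and 0.13 in polysomal RNA (-7.9e-05 and -0.056 without control culture 3). EVPL, a plakin of the cornified envelope just under the filter, was singled out after its values were seen. It read 0.0266, 0.0167 and 0.0341 FPKM in the control and 0.860, 0.787 and 0.601 with RBMX in total RNA, and 0.0422, 0.0431 and 0.0333 against 1.01, 1.57 and 0.726 in polysomal RNA, so its groups were apart in both fractions. Its log2 difference on the log2(FPKM + 1) scale was 0.77 in total and 0.997 in polysomal RNA, given without a p since this contrast singled it out. PERP, a desmosomal membrane protein, lay at 55.8 to 82.2 FPKM over all libraries, DSG2, a desmosomal cadherin, at 18.8 to 39.6, and PKP4, an armadillo protein of junctions, at 22.9 to 31.3. In polysomal against total RNA, 13 of the 14 were higher in the control and 14 of 14 in RBMX cells, with medians of 0.12 and 0.19 on the log2 scale. Over all 14676 genes, 7309 were higher in the control and 7229 in RBMX cells.

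HEK293 cells expressed markers of several lineages, and none of the marker genes passed the threshold in any comparison (limma), while up to 3 genes of a list had an unadjusted p under 0.05 in one. Over all 14676 genes such a p was reached by 88 to 3373, depending on the comparison. Of the epithelial markers 9 of 12 passed the filter, led by EPCAM (55.7 to 85.7 FPKM over all libraries), CLDN7 (13.03 to 17.4) and ESRP2 (9.01 to 13.1). Of the neuronal markers 9 of 12 passed, led by UCHL1 (311 to 379), TUBB3 (13.6 to 24.1) and NCAM1 (9.82 to 15.8), while the defining neuronal genes STMN2, DCX and ELAVL3 were below the filter. Of the mesenchymal markers 9 of 12 passed, led by FN1 (25.5 to 49.1), CDH2 (22.1 to 41.8) and TWIST1 (11.6 to 15.4). Of the embryonic kidney markers 6 of 8 passed, among them SALL1 (10.6 to 12.96) and LHX1 (7.82 to 9.61). Of the blood cell markers CD14 alone passed (1.16 to 1.99), and PTPRC reached at most 0.0209 FPKM. The RBMX minus control median in total RNA was 0.15 for the epithelial, 0.13 for the neuronal and -0.022 for the mesenchymal markers, and 0.12, 0.068 and 0.12 without control culture 3.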

How the data were processed

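Total and polysomal RNA of 3 control and 3 RBMX cultures of HEK293 cells was sequenced by the authors with a TruSeq kit from 500 ng of RNA. The authors deposited FPKM values per gene. The submitters' processing notes name CASAVA 1.8, TopHat2 2.0.13, Cufflinks 2.2.1, Cuffnorm and hg19, but no annotation or options. The paper's methods instead describe alignment to hg38 with GENCODE v27 for its counts and do not name how the FPKM values were made, so the build behind them is that of the notes alone. Depth is therefore unknown, and neither floors nor intervals are given. An estimate from the steps of low values failed, since only 11.5% to 23.5% of genes up to 0.05 FPKM shared a step with the reference library.

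FPKM values were transformed to log2(FPKM + 1). The 14676 genes with a mean of at least 0.5 FPKM over 12 libraries were tested with limma 3.58.1 in R 4.3.3 (lmFit, eBayes with trend), on the 6 libraries of each comparison or all 12 for the difference between fractions, with Benjamini-Hochberg adjustment at 0.05. A fold on this scale understates changes of low genes. The p-values measure the spread between cultures of one line. The fits were also run on simulated libraries. These were drawn independently, without shared cultures or an outlying one, so nothing is read from that run. Python 3.11.15 with Biopython 1.88 was used for sequences, and matplotlib 3.10.9 for plots.

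The members, the gene lists and the alternatives were chosen with earlier results of these data known. Named are all members, RBMX, the 3 most abundant and any called gene of 7 further lists, other keratins past the filter and the 5 genes most like KRT17. A marker gene that this rule names is not reported here. TMEM99, NEFH, KRT28, EVPL and genes cited for a count were named outside this rule, after their values were seen. Sequences and overlaps came from GENCODE v29 on GRCh38, whose coordinates are not printed because the values rest on hg19. Protein sequences were not used here.

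Same-numbered libraries of one vector were taken as one culture, since the extraction protocol pools total RNA from all fractions of the gradient, although the treatment protocol mentions separate dishes for both extractions. Over genes other than small RNA, which are not independent replicates, the deviations of both libraries from their group means had a Pearson's r of 0.606, 0.686 and 0.836 in control and of 0.224, 0.0199 and 0.655 in RBMX cultures 1 to 3. RBMX and control cultures share only a number.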

Additional observations from a re-analysis of the deposited data

How the results depend on the processing

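The settings tried were another pseudocount, filter, scaling or trend, small RNA genes left out, all 12 libraries in one fit, the replicate number as a block and each culture left out in turn. With the replicate block for RBMX against control in total RNA, where the cultures share only a number, 0 members passed instead of 1 (KRT17), and 13 genes instead of 24. In polysomal RNA, 1 member (KRT17) passed instead of 0 with all 12 libraries in one fit, and 0 to 1 with one culture left out, the 1 being without RBMX culture 3, where 126 genes passed instead of 7 (178 instead of 24 in total RNA). For polysomal against total RNA in RBMX cells, 1 member (KRT10) passed with small RNA genes left out, where 442 genes passed instead of 196. In control cells 199 genes instead of 12 passed without control culture 3, and no member. Over the other settings, with all libraries kept, the genes past the threshold numbered 13 to 77 in total and 2 to 31 in polysomal RNA for RBMX against control, 6 to 41 in control and 4 to 442 in RBMX cells for polysomal against total RNA, and 0 to 5 (from 3) for the difference between fractions. With one culture left out the last was 4 to 7, and that in RBMX cells 21 to 23. The paired fits by replicate block changed no other call of a member. The polysomal minus total log2 difference in control cells turned from -0.013 to 0.22 for VIM under quantile normalization. That setting also moved VIM from 0.16 to 0.70 and KRT8 from 0.16 to 0.34 for polysomal against total RNA in RBMX cells, and VIM from 0.28 to -0.038 for RBMX against control in total RNA. With a minimum mean of 0.1 FPKM or no filter, KRT28 (both fractions) and EVPL (total RNA) passed for RBMX against control among the genes of the other lists. Both genes lay below 0.1 FPKM in every control library and reached that minimum only through their RBMX libraries, so nothing is read from these calls. With one control culture left out, the polysomal minus total log2 difference in control cells ran from -0.060 to 0.076 for VIM. It ran from -0.037 to 0.039 for NEFL and from -0.13 to 0.024 for INA. The cause was not tested. The ratio of KRT17 to other members was apart in polysomal RNA for 4 of them instead of 5 with a pseudocount of 0.1. Low members such as NES are limited by an unknown depth, and 3 cultures per vector limit each test.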
